A study of Homo sapiens with 16 samples.

Results

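Genes of amino acid breakdown and the urea cycle were followed in palmitic acid-treated and control cells of HepG2, a line grown from a human liver tumour, after editing of the PNPLA3 gene. The set was a list of 38 genes, of which 37 had a row among the 16558 genes of the expression table, and 36 of these passed the filter for testing (a mean of at least 1 unit over the libraries). A unit here is the deposited value, a read count per library size (CPM) after the authors' scaling between libraries. TDO2 was not analysed here, and ARG1, the arginase that releases urea, stayed below the filter with 0 to 14 reads in each of the 16 libraries.

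PNPLA3 encodes a lipid-droplet enzyme, and the edited I148M site carries C for isoleucine or G for methionine. The study held 3 GG clones (1, 2 and 6), 3 GC clones (2, 3 and 4) and 2 CC clones (1 and 3), and each clone gave 1 library after 250 µM palmitic acid for 48 h and 1 control library. Palmitic acid, a saturated fatty acid, is a common way to make hepatocytes take up and store fat. Whether each numbered line grew from 1 cell, and what the control cells received in place of palmitic acid, is not given in the sources used here. Libraries held 9314342 to 15777669 reads.

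The liver breaks down most of the amino acids not used for protein. Aminotransferases pass the amino group to glutamate, the carbon skeletons are oxidised in mitochondria along routes particular to each amino acid, and the nitrogen leaves as urea. Methionine breakdown runs through homocysteine, which is either turned back into methionine or passed on to cysteine. Hepatocyte-derived lines such as HepG2 are known to keep only part of this capacity.

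With palmitic acid, 10 of the 36 tested members fell and 2 rose over the 8 clones (limma, clone as a block, adjusted p under 0.05 over all 13095 tested genes). On the fitted scale AGXT fell by 59.2%, BHMT fell by 57.8% and CPS1 fell by 26.2%. Of the other 7, BCAT2 fell by 23.5% and CBS, the least changed, fell by 13.6%. GPT2 and ASS1 rose. Among all tested genes 18.9% were called, 9.33% higher and 9.52% lower, against 33.3% of the members, 5.56% higher and 27.8% lower. The members and the further lists below were chosen with earlier results of these data known. Their shares beside those of all genes are therefore a description, not independent evidence. The median change of the members was -0.11 on the log2 scale, beside -0.01 for all tested genes.

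The upstream sequences of the 4 called members with a single RefSeq start are shown because these genes moved in the same direction. Each line gives the 250 bases before the start in RefSeq on GRCh38.p14, plus strand. The GENCODE positions used for the genes begin earlier than these RefSeq starts. The AGXT and BCKDHA windows therefore lie inside the GENCODE genes, and the BHMT and ASL windows overlap theirs in part. Capitals mark 3 motifs. The TATA box is TATAAA. The CCAAT box reads as ATTGG on the other strand. The GC box is GGGCGG on either strand. No marked letters overlap.
AGXT, chr2:240868574-240868823: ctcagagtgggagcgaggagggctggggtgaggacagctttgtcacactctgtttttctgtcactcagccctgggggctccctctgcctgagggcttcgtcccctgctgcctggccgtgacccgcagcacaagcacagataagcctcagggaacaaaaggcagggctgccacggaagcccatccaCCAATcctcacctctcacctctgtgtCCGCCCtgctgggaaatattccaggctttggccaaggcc
BHMT, chr5:79111559-79111808: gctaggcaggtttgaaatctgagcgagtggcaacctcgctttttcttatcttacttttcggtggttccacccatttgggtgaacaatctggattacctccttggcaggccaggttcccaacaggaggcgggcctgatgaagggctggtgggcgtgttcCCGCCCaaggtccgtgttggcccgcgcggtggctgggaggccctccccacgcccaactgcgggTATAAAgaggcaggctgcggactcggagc
ASL, chr7:66075569-66075818: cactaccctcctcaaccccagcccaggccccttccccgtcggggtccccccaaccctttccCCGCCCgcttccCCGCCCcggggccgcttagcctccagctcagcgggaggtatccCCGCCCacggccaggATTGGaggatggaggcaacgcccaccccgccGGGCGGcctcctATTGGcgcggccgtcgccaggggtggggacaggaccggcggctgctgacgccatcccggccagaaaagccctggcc
BCKDHA, chr19:41397568-41397817: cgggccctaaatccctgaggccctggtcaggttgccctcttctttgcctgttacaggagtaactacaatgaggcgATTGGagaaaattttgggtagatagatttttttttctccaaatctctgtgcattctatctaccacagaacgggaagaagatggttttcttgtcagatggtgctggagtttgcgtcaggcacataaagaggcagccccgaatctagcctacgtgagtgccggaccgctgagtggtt

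These windows held different letters: BHMT alone of the 4 had TATAAA, while AGXT, ASL and BCKDHA had CCAAT. Of the 35116 promoters of this length, 10.7% held TATAAA, 32.0% CCAAT and 42.6% GGGCGG on either strand. Among the 24 listed genes with 1 start, which include TDO2 and ARG1, the numbers were 4, 15 and 19. GTTAAT, the core of the HNF1 site, was in 2 of the 24 and in 6.23% of all promoters. CAAAGTCCA, an HNF4 site, was in 0 of the 24 and in 0.325% of all. TTGCNNAA, a C/EBP site, and TGATGNAA, a C/EBP-ATF element, were each in 1 of the 24, beside 9.05% and 3.14% of all promoters. These are letter matches only.

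Methionine and homocysteine genes had 3 of 4 tested members lower. BHMT (chr5:79111779-79132290, plus strand), which uses betaine to turn homocysteine back into methionine, had 2.98, 9.06 and 3.20 units in GG, 3.47, 2.73 and 15.8 in GC, and 22.5 and 1.08 in CC clones with palmitic acid. The control libraries of the same clones had 8.79, 16.1 and 6.08 units in GG, 5.40, 10.4 and 59.1 in GC, and 36.3 and 5.66 in CC. Every clone was lower with palmitic acid than in its own control, although levels of treated and control clones overlapped widely, since clones differed by up to 10.9-fold before treatment. The fitted log2 change of BHMT was -1.24 ± 0.17 (SE, 8 clones, limma adjusted p = 0.00112).

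AHCY (chr20:34280268-34311802, minus strand), which splits S-adenosylhomocysteine into adenosine and homocysteine, ran from 350.4 to 536 units with palmitic acid, against 416 to 602 in control. It was lower in 8 of 8 clones and fell by 0.25 ± 0.05 (SE, log2, n = 8, limma adjusted p = 0.00573). CBS (chr21:43053191-43076943, minus strand), the entry to cysteine synthesis from homocysteine, ran from 43.8 to 295 units against 59.9 to 292. CBS fell by 0.21 ± 0.06 (SE, log2, n = 8, limma adjusted p = 0.0265), a call lost when GG2, GC2, GC3 or CC3 was left out, with adjusted p up to 0.0862. GRCh38 also carries a near-identical CBS copy, so that its reads may be split. CTH, which makes cysteine in the following step, changed by 0.04 ± 0.11 and was not called.

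In glycine and glyoxylate metabolism, AGXT was the member with the largest fall. AGXT (chr2:240868479-240880502, plus strand) encodes the peroxisomal aminotransferase that turns glyoxylate into glycine, and its loss causes primary hyperoxaluria. With palmitic acid it had 28.1, 13.3 and 6.03 units in GG, 12.6, 18.0 and 97.2 in GC, and 15.4 and 1.41 in CC clones. The controls had 48.2, 25.7 and 12.2 units in GG, 26.5, 33.6 and 134 in GC, and 43.6 and 14.0 in CC. All 8 clones were lower with palmitic acid, while GC4 stood above every other clone under both conditions. The fitted log2 change of AGXT was -1.29 ± 0.13 (SE, 8 clones, limma adjusted p = 2.0e-04). Without CC3, the clone with the largest fall, the change was -1.05 and it was still called.

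AMT and GCSH, the T and H proteins of the glycine cleavage system, changed by -0.16 ± 0.06 and -0.13 ± 0.07 and did not pass, although AMT was lower in 8 of 8 clones. SHMT1, which interconverts serine and glycine, changed by -0.21 ± 0.09 and did not pass either. Outside the member list, GLDC of the glycine cleavage system did pass. It fell by 0.33 ± 0.06 (SE, log2, limma adjusted p = 0.00363) and was lower in 8 of 8 clones. DLD of the same system changed by -0.03 ± 0.05 and was not called. A row for GCSHP3, a copy of GCSH, stands in the same table, and reads of such copies may be split.

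**Figure D1:**
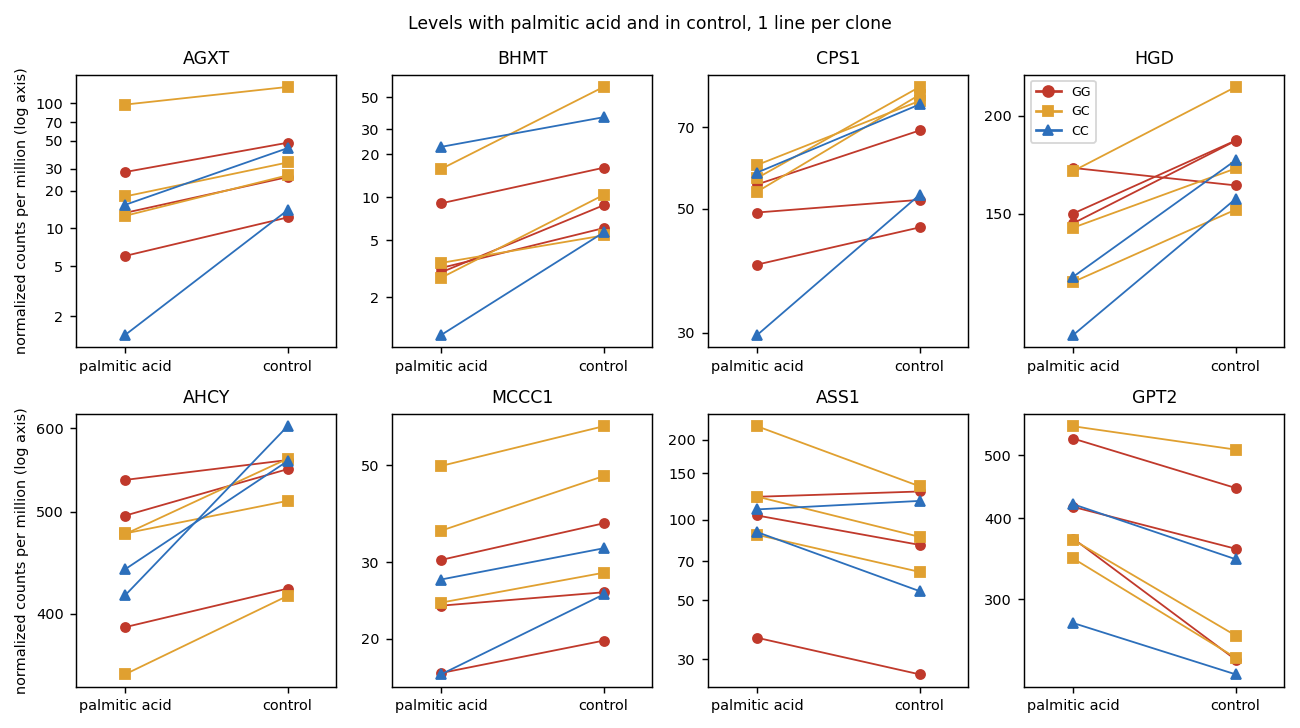
Level of 8 called members in each clone with palmitic acid (left) and in control (right), in normalized counts per library size on a log axis, with 1 line per clone coloured by genotype. AGXT and BHMT are lower with palmitic acid in all 8 clones, GPT2 is higher in all 8, and control levels of AGXT and BHMT differ by about 11-fold between clones.

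The urea cycle members moved in opposite directions. CPS1 (chr2:210477682-210679107, plus strand), the mitochondrial enzyme that fixes ammonia as carbamoyl phosphate, had 55.3, 49.2 and 39.7 units in GG, 59.9, 56.8 and 53.6 in GC, and 58.0 and 29.7 in CC clones with palmitic acid. The controls had 69.0, 51.9 and 46.3 units in GG, 78.0, 82.6 and 80.0 in GC, and 76.9 and 53.0 in CC. The 3 GC clones did not overlap between palmitic acid and control, the GG and CC clones did, and the fall in GG2 was slight. CPS1 fell by 0.44 ± 0.06 (SE, log2, n = 8, lower in 8 of 8 clones, limma adjusted p = 0.0011).

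ASS1 (chr9:130444929-130501274, plus strand) joins citrulline and aspartate in the cytosol. It had 104, 36.1 and 122 units in GG, 87.9, 122 and 225 in GC, and 90.1 and 109.6 in CC clones with palmitic acid, against 80.6, 26.3 and 128, then 63.8, 86.4 and 134, then 54.0 and 118 in control. ASS1 was higher with palmitic acid in 6 of 8 clones and slightly lower in GG6 and CC3. It rose by 0.38 ± 0.09 (SE, log2, n = 8, limma adjusted p = 0.0151), by 0.24 without CC1 and by 0.52 without CC3. ASS1 has processed pseudogenes, and how reads shared with them were placed is not given in the sources used here.

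ASL (chr7:66075798-66093558, plus strand), which splits the product of ASS1 into arginine and fumarate, ran from 26.9 to 50.9 units with palmitic acid, against 25.5 to 49.5 in control. Its fitted change was a fall of 0.22 ± 0.06 (SE, log2, n = 8, limma adjusted p = 0.0319). ASL was slightly higher with palmitic acid in GG1 (0.05), GG6 (0.08) and GC4 (0.10). It was lower in all other clones, most in CC3 (-0.61) and CC1 (-0.44). The call was lost without GG1, GG2, GC2, GC3 or CC3, with adjusted p up to 0.129, and also under DESeq2 (adjusted p = 0.0673) and with 1 common effect for the genotypes (limma adjusted p = 0.114). OTC, the enzyme between CPS1 and ASS1, had 0 to 8 reads per library and was not tested, so that both OTC and ARG1 were near the limit of detection in these cells.

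Branched-chain amino acid genes gave 3 of 10 tested members lower and 0 higher. MCCC1 (chr3:183015218-183116075, minus strand), the biotin-carrying subunit of the carboxylase in leucine breakdown, ran from 16.6 to 49.8 units with palmitic acid, against 19.8 to 61.4 in control. It was lower in 8 of 8 clones and fell by 0.31 ± 0.06 (SE, log2, limma adjusted p = 0.00648). MCCC2, the partner subunit, ran from 128 to 203 units against 140.3 to 206, and its change was 0.00 ± 0.06. The difference between the changes of the 2 subunits was not tested.

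BCKDHA, a subunit of the first component of the branched-chain keto acid dehydrogenase, was lower in 8 of 8 clones and fell by 0.23 ± 0.07 (SE, log2, limma adjusted p = 0.0395). BCAT2, the mitochondrial branched-chain aminotransferase, stood at 1.37 to 4.31 units with palmitic acid, against 2.39 to 5.55 in control, and fell by 0.39 ± 0.12 (SE, log2, limma adjusted p = 0.0475). Both calls were lost when any clone but CC1 was left out, with adjusted p up to 0.224 for BCKDHA and 0.271 for BCAT2. BCKDHA also lost its call under DESeq2 (adjusted p = 0.106). The BCAT2 call was lost under DESeq2 (adjusted p = 0.209) and edgeR (adjusted p = 0.0736), with a pseudocount of 0.1, with no filter on low values and with scaling by library total. Without CC3 the changes were -0.15 for BCKDHA and -0.23 for BCAT2. BCKDHB, the partner of BCKDHA, lay just outside the threshold at -0.22 ± 0.07 (limma adjusted p = 0.0502), and DBT, the core of the same complex, at -0.19 ± 0.08 (limma adjusted p = 0.108). IVD in leucine breakdown and ACAD8, HIBCH and HIBADH in valine breakdown were not called, with changes between -0.20 and 0.04.

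Of the 7 phenylalanine and tyrosine genes only HGD passed. HGD (chr3:120628173-120682571, minus strand) opens the ring of homogentisate, and its loss causes alkaptonuria. It ran from 105 to 172 units with palmitic acid, against 152 to 218 in control, and was lower in 7 of 8 clones, GG2 being the exception. HGD fell by 0.34 ± 0.06 (SE, log2, n = 8, limma adjusted p = 0.00231). HPD, the step before, and GSTZ1 and FAH, the steps after, changed by -0.18 ± 0.09, -0.20 ± 0.10 and 0.23 ± 0.09 and were not called. TAT, the entry to the route, and QDPR and PCBD1, which regenerate the cofactor tetrahydrobiopterin, lay between 0.01 and 0.12. Neither tryptophan gene was called: KYNU changed by 0.20 ± 0.10 and AADAT by -0.08 ± 0.08.

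The 6 genes around glutamate, alanine, aspartate, proline and ornithine had fitted changes above 0, of which 1 passed. GPT2 (chr16:46884378-46931297, plus strand), the mitochondrial alanine aminotransferase, had 372, 416 and 530.0 units in GG, 554, 347 and 370.4 in GC, and 276 and 420.2 in CC clones with palmitic acid. The controls had 242, 359 and 445 units in GG, 509.7, 244 and 264 in GC, and 230.1 and 346 in CC. Each clone was higher with palmitic acid, with overlap between the groups because clones differed. GPT2 rose by 0.33 ± 0.06 (SE, log2, n = 8, limma adjusted p = 0.00512). ALDH4A1 in proline breakdown and GOT1, the cytosolic aspartate aminotransferase, changed by 0.17 ± 0.07 and 0.15 ± 0.07. GLUD1, OAT and GOT2 lay between 0.01 and 0.05. GLUD1P3, a copy of GLUD1, has a row of its own, and reads may be split between them.

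**Figure D2:**
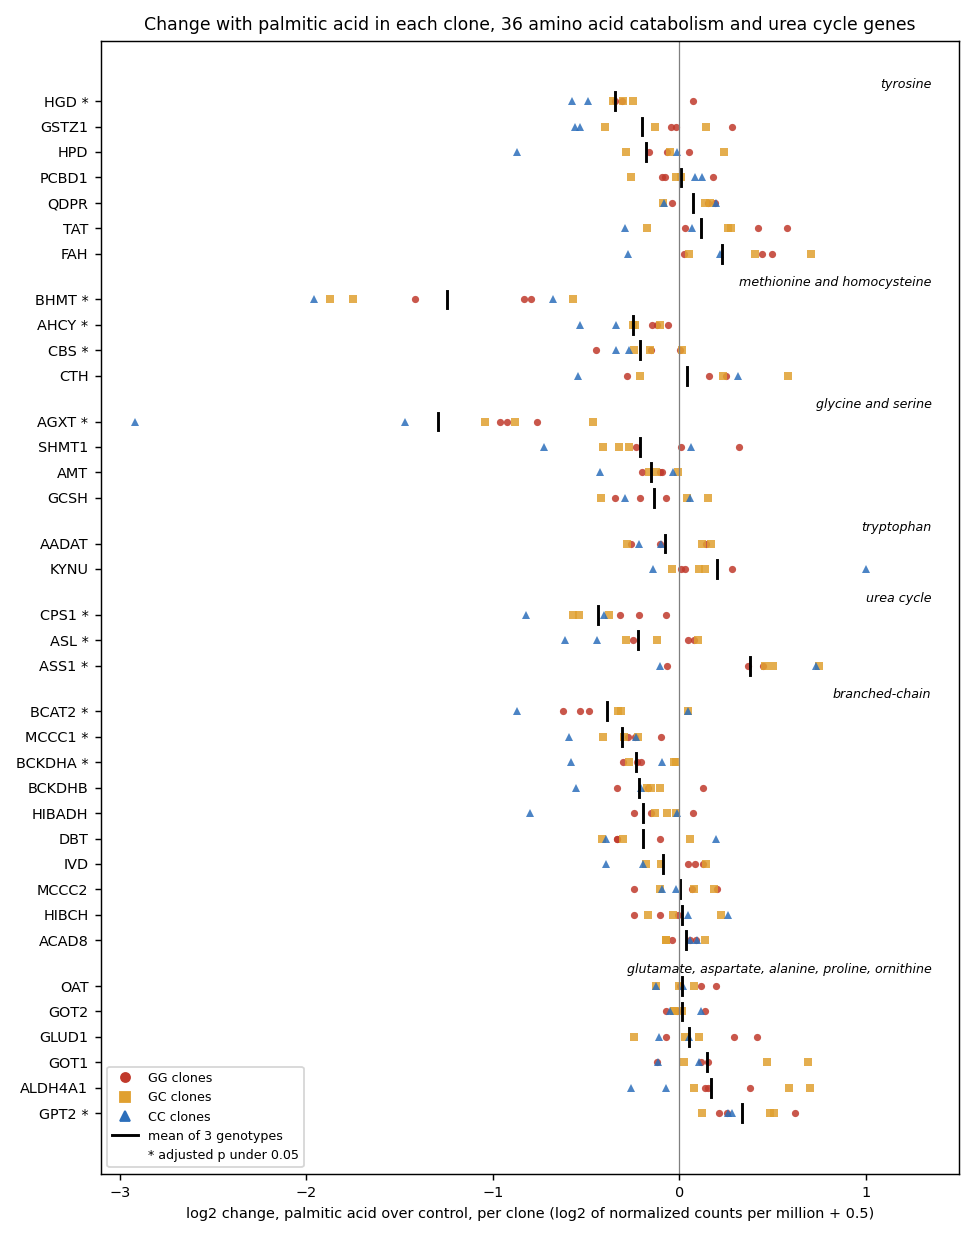
Change with palmitic acid in each clone (log2, palmitic acid over control, points by genotype) and the fitted mean of the 3 genotypes (black bars) for the 36 tested members, grouped by pathway; an asterisk marks a limma adjusted p under 0.05. Points left of 0 are lower with palmitic acid. CC3 has the most negative change in 19 of 36 rows, a count made for members only.

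Direction was shared by all 8 clones for 8 of 36 members, or 22.2%, beside 13.6% of all tested genes. These were BHMT, AHCY, AGXT, AMT, CPS1, BCKDHA and MCCC1, all lower, and GPT2, which was higher. AGXT, BHMT, CPS1, HGD, AHCY, MCCC1, ASS1 and GPT2 were called in each of the 8 fits that left out 1 clone. In a fit that ignores the pairing by clone 0 members were called higher and 0 lower, and adjusted p was between 0.333 and 0.913 for the 12 genes.

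Among further genes of amino acid breakdown, more fell than rose. Of 76 other listed genes, 71 had a row, 4 of them under older symbols, and 67 were tested. Of these 22 fell, or 32.8%, and 2 rose, or 2.99%, with a median of -0.17. Among all tested genes 9.52% fell and 9.33% rose. This list, too, was chosen with earlier results of these data known. Histidine and lysine breakdown had 7 of 8 genes lower, among them AASS (-0.58 ± 0.09, limma adjusted p = 0.00214) and ALDH7A1 (-0.46 ± 0.06, limma adjusted p = 9.5e-04), enzymes of lysine breakdown. ALDH6A1, which acts late in the oxidation of valine, had the largest fall of the 67, at -0.90 ± 0.11 (limma adjusted p = 6.2e-04). MAT1A, the liver enzyme that makes S-adenosylmethionine, fell by 0.36 ± 0.10 (limma adjusted p = 0.029). ARG2, the mitochondrial arginase, was among those that rose, by 0.46 ± 0.13 (limma adjusted p = 0.0323).

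Regulators known to act on amino acid genes of the liver, transcription factors and the coactivator PPARGC1A, were read alongside. Of 11 tested, 6 fell, or 54.5%, and 0 rose, beside 9.52% lower and 9.33% higher among all tested genes. KLF15, a regulator of amino acid breakdown in mouse liver, fell by 0.75 ± 0.10 in 8 of 8 clones (limma adjusted p = 8.0e-04). CEBPA, CEBPB, PPARA, NR3C1 and HNF4A fell by 0.26 to 0.46. ATF4, the factor of the amino acid stress response, changed by -0.01 and was not called.

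Hepatocyte markers also moved. Of 10 markers 6 fell with palmitic acid, or 60%, beside 9.52% of all tested genes. HNF4A is in both lists, so its fall is counted among the regulators and again here. FGB, a fibrinogen chain, led them at -1.55 ± 0.13 (limma adjusted p = 9.3e-05). The summed level of the 10 markers ran from 17056 to 45713 units with palmitic acid, against 23899 to 57437 in control. Their part in the members' changes was not tested. All cultures were of HepG2, a single line. In RNA of whole cultures, a change in the share of cells that express a gene and a change per cell cannot be told apart. Genes used as markers of other liver cell types, which the labels do not report in these cultures, did not move 1 way within their lists. Of 2 tested stellate markers PDGFRB rose and RGS5 was at -0.21, and of 2 endothelial markers PECAM1 fell and LYVE1 was at 0.64, higher in 7 of 8 clones but not called (limma adjusted p = 0.0764). Of 3 macrophage markers CD14 fell, while CD68 was at -0.08 and LYZ at 0.16, and the cholangiocyte markers KRT19 and SOX9 were at 0.37 and -0.07, neither called. The summed levels ran from 3.52 to 17.5 units with palmitic acid against 2.78 to 25.0 in control for stellate, and from 9.44 to 33.7 against 10.6 to 31.3 for endothelial markers. They ran from 399 to 1060.3 units against 391.6 to 914 for macrophage, and from 239 to 316 against 245 to 365 for cholangiocyte markers. The defining stellate gene COL1A1 had at most 17 reads in a library. The macrophage gene PTPRC and the endothelial genes VWF and KDR were not analysed here.

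**Figure D3:**
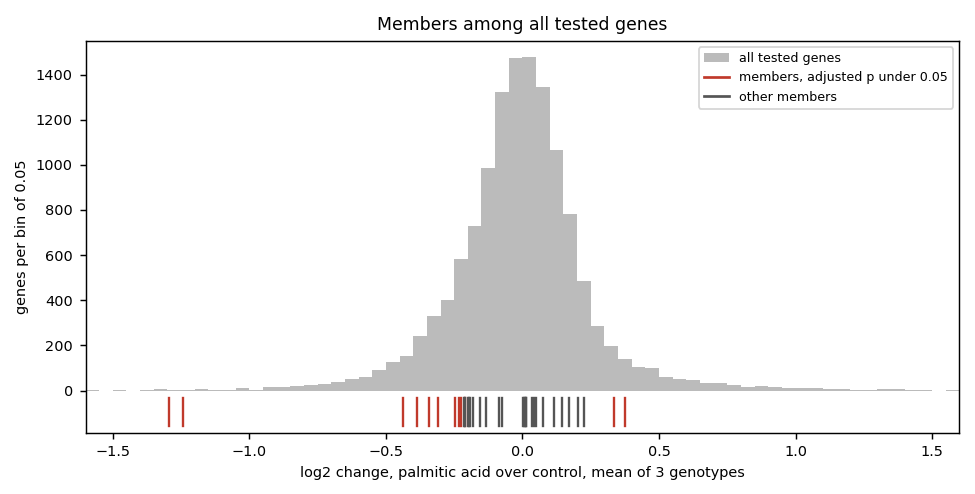
Fitted change with palmitic acid (log2, mean of 3 genotypes) as a histogram of tested genes within the axis range, and as ticks below it for the 36 members, red where the limma adjusted p was under 0.05. The median is -0.11 for members and -0.01 for all tested genes, and the ticks of AGXT and BHMT stand apart at the low end.

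Within GG clones 0 of 36 members passed (0.84% of all tested genes did), edgeR called 0 and DESeq2 called AGXT and BHMT. An unadjusted p under 0.05 was found for 6 members in GG, or 16.7%, near the 15.7% of all tested genes. Within GC clones 2 passed, beside 1.54% of all genes: BHMT at -1.40 ± 0.28 (limma adjusted p = 0.0361) and CPS1 at -0.50 ± 0.10 (limma adjusted p = 0.0349). Both GC calls were lost without GG6, GC3 or GC4, and DESeq2 called 6 members. Within CC clones 4 passed, beside 2.3% of all genes. They were AGXT at -2.20 ± 0.26 (limma adjusted p = 0.0061), CPS1 at -0.61 ± 0.12 (0.0284), HGD at -0.53 ± 0.11 (0.0346) and AHCY at -0.44 ± 0.09 (0.041). With CC1 or with CC3 left out, the CC response rests on 1 clone assumed to vary like the others. Its calls are not given singly and enter only the leave-one-out ranges of the last section.

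The response itself was compared between genotypes. limma called 0 members for GG minus GC, GG minus CC or GC minus CC, beside 0%, 0.00764% and 0.00764% of all tested genes. An unadjusted p under 0.05 was found for 0 members in GG minus GC, beside 1.75% of all tested genes. In GG minus CC it was found for 7 members, or 19.4%, beside 5.86% of all, and in GC minus CC for 3 members, or 8.33%, beside 4.68% of all. AGXT was among those nearest to a call, with a response higher by 1.31 ± 0.34 in GG than in CC (limma unadjusted p = 0.00232, adjusted p = 0.797) and by 1.40 ± 0.34 in GC than in CC (limma unadjusted p = 0.00148, adjusted p = 0.911). edgeR and DESeq2 called 0 members in these 3 comparisons. Without CC1 or without CC3, CC is a lone clone assumed to vary like the GG and GC clones. Calls of those fits are therefore not given singly and enter only the leave-one-out ranges of the last section. AGXT, HIBADH, HPD and KYNU were among the members whose CC3 change lay far from those of the other 7 clones.

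Levels were then compared between genotypes under each condition. With palmitic acid, 0 members passed for GG against GC, GG against CC or GC against CC, beside 0%, 0.00764% and 0.00764% of all tested genes. In control, 0 members passed for the same 3 pairs, beside 0% of all genes for each, and edgeR and DESeq2 called 0 members in all 6. With palmitic acid 3, 1 and 4 members had an unadjusted p under 0.05, or 8.33%, 2.78% and 11.1%, beside 6.03%, 1.84% and 8.37% of all tested genes. In control the numbers were 6, 1 and 0 members, or 16.7%, 2.78% and 0%, beside 6.65%, 1.19% and 3.12%. In control, 26 of 36 members were lower in GG than in GC, with a median of -0.25 beside 0.00 for all genes. Against CC, 26 were also lower in GG (median -0.13), and 16 were lower in GC (median 0.08). With palmitic acid 24 were lower in GG than in GC (median -0.16), 20 lower in GG than in CC (median -0.01) and 10 lower in GC than in CC (median 0.21). The share of all genes in these directions is not given here. The 6 nearest to a call for GG against GC in control were GSTZ1, HIBADH, ASL, CPS1, BCKDHB and BCKDHA, with differences from -0.75 to -0.48 and limma adjusted p = 0.75.

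Within a genotype, clones differed widely in several members. TAT, which starts tyrosine breakdown, had 4.98, 9.74 and 3.84 units in GG, 2.70, 7.55 and 59.1 in GC, and 8.03 and 5.03 in CC controls, a range of 21.9-fold set by GC4. The same clone had 52.2 units with palmitic acid. CTH ranged over 8.70-fold in control, from 9.43 units in GG2 to 82.0 in GG6, and CBS, the enzyme before it, ranged over 4.88-fold with its lowest level in GG2. ASS1 had 26.3 units in the GG2 control, against 54.0 to 134 in the other controls. Over the 8 control libraries the median SD was 0.34 on the log2 scale for members and 0.28 for all tested genes. GC4 was the highest control for 12 members and GG6 the lowest for 14, counted for members only, without the share over all tested genes.

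**Figure D4:**
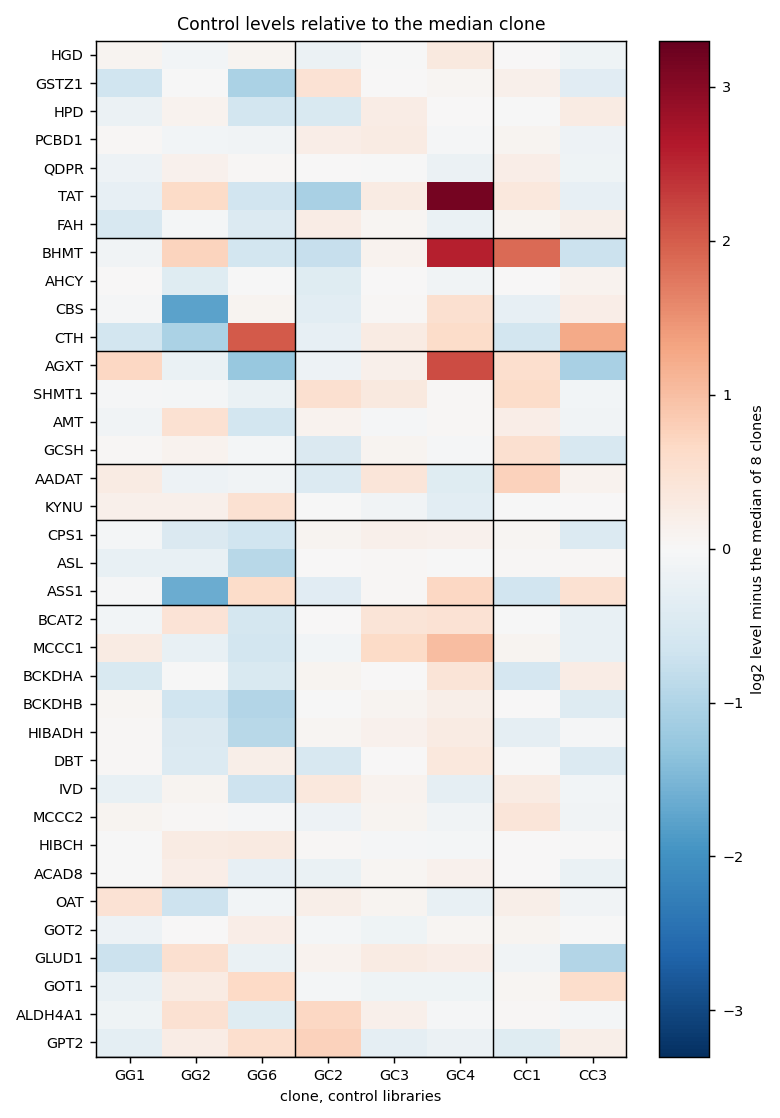
Control level of each tested member in the 8 clones, as log2 difference from the median clone (colour, red for higher), with genes in rows by pathway and clones in columns by genotype. GC4 carries high TAT, BHMT and AGXT, GG6 high CTH, and GG2 low ASS1 and CBS.

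The CC3 clone stood apart in its response. It had the most negative change for 19 of 36 members, and its palmitic acid library was the lowest of the 8 treated libraries for 12 of them. These counts were made for members only, so whether they are particular to the members was not tested. The same library had the fewest reads of the 16 (9314342) and the lowest level of the 16 for 7 of 10 hepatocyte markers. The SD of its change over all tested genes was 0.57, against 0.31 to 0.40 in the other clones. Without CC3, the changes over all clones were -1.03 for BHMT, -0.37 for CPS1 and -0.29 for DBT. BCKDHA was at -0.15 and BCAT2 at -0.23 in that fit, smaller falls than with all clones. Without CC1 or without CC3, the CC part of the all-clone response rests on 1 clone. Counts of called members are therefore not given singly and enter only the leave-one-out ranges of the last section.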

How the data were processed

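RNA-seq was done on 16 libraries. Per the labels' protocols, total RNA was rRNA-depleted and made into directional libraries. Tools named in the submitters' processing notes are Trimmomatic 0.38, RSEM 1.3.0, edgeR and Bowtie2, with build hg38; annotation and gene filter are not stated there. Values deposited by the authors are a scaled signal over 16558 genes. In each library these deposited values were multiples of the worth of a single read (100% came out whole, tolerance 0.01), and that worth equalled CPM with TMM scaling recomputed in edgeR, so that read counts could be recovered. The labels of single treated libraries give hours that run from 48 upward in sample order; the protocol's 48 h was taken and these hours were not used.

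The test was limma 3.58.1 (R 4.3.3) with a mean-variance trend on log2(value + 0.5), which understates changes of low genes, for 13095 genes whose mean reached 1 unit. It was two-sided, and p-values were adjusted (Benjamini-Hochberg, 0.05) over every gene tested in each of 13 comparisons. Responses to palmitic acid were fitted with the clone as a block and 1 effect per genotype (5 residual degrees of freedom), the all-clone response being the mean of the 3 genotype effects. Levels between genotypes used the 6 group means (10 degrees of freedom). This fit has no clone term, so the treated and control libraries of a clone enter its spread as if independent. Its degrees of freedom therefore overstate the replication by clones, also for the unadjusted p-values of levels. The pairing comes from the titles, which give a control and a treated library the same clone: deviations from group means correlated at 0.523 to 0.857 within clones, and each library's highest correlation was with its own clone's partner; the 2 CC clones are mirror images around their mean and give 1 value, 0.744. No replicate was a copy of another (chi-square over its degrees of freedom at least 22.5). n counts clones with 1 library per treatment, and p-values measure the spread between these clones.

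Alternatives were another pseudocount, filter or scaling, no clone block, 1 common effect, edgeR 4.0.16 and DESeq2 1.42.0 on recovered reads, and leaving out each clone. The named genes are the listed members, and other genes were named from the pathway, regulator and marker lists; members and lists were chosen with earlier results of these data known. Positions are from GENCODE on GRCh38, upstream sequences from RefSeq on GRCh38.p14. Some of the other pathway genes are counted but not reported singly here.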

Additional observations from a re-analysis of the deposited data

Results flagged for a closer look

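The changes of the 8 clones with palmitic acid were checked for a clone far from the others in each of the 36 tested members. Chance flags about 1 in 20 such groups, if clones vary alike. Such a clone was found for 5 members, or 13.9%, beside 9.22% of all tested genes. In all 5 it was CC3, as for 63.6% of the genes with such a clone among all tested. The treated CC3 library had the fewest reads, and the part of depth in these values was not tested. AGXT changed by -2.92 in CC3, against -1.47 to -0.47 in the other clones. HPD, the dioxygenase before homogentisate, changed by -0.87 in CC3, against -0.29 to 0.24. HIBADH of valine breakdown changed by -0.80, against -0.25 to 0.07, and AMT of glycine cleavage by -0.43, against -0.20 to -0.01. KYNU, the kynureninase of tryptophan breakdown, went the other way at 1.00 in CC3, against -0.14 to 0.28.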

How the results depend on the processing

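Calls depended most on the pairing. With no replicate block, 0 members were called higher and 0 lower over all clones, 0 in GC and 0 in CC, 0 other pathway genes were called higher and 0 lower, and 6 of all genes were called over all clones, 0 in GG, 0 in GC and 1 in CC, beside 2469, 110, 202 and 301 with the block. DESeq2 called 2 members in GG and 6 in GC, and 251, 380 and 493 of all genes in GG, GC and CC; scaling by library total gave 199 of all genes in CC. Leaving out 1 clone at a time gave 2 to 3 members higher and 6 to 15 lower over all clones, 0 to 2 in GG, 0 to 5 in GC, 1 to 12 in CC, 0 to 4 for GG minus CC and for GC minus CC, 0 to 0 for GG minus GC and for the 6 comparisons of levels, 1 to 5 other pathway genes higher and 12 to 35 lower, and 1252 to 3766 of all genes over all clones, 0 to 472 in GG, 2 to 767 in GC and 11 to 2083 in CC. CTH, at 0.04 over all clones, turned to -0.02 without GC4 and to -0.10 without CC3, and reached 0.19 without CC1. The cause of these changes in counts was not tested. The ranges from leaving out 1 clone at a time include the fits without CC1 and without CC3. There CC is a lone clone assumed to vary like the others, so no conclusion is drawn from the ends of these ranges. ARG1 and OTC, genes of few reads, lay below the filter of 1 unit and were not among the genes tested. The part of depth in their low values was not tested.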
